A study of Mus musculus with 9 samples.

Results

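The genes described here are the 39 *Hox* genes of the 4 mouse *Hox* clusters and 50 further homeobox genes whose symbols carry the names *Barx*, *Dlx*, *Gsx*, *Irx*, *Lhx*, *Msx*, *Nkx*, *Pitx* or that of the sine oculis homeobox family. They were chosen by symbol alone, which gave 89 of the 25239 gene symbols in the count files, and the rule uses no measured value, although it was set with earlier results of these data known. The 50 further genes were 2 *Barx*, 6 *Dlx*, 2 *Gsx*, 6 *Irx*, 8 *Lhx*, 3 *Msx*, 14 *Nkx*, 3 *Pitx* genes and 6 genes of the sine oculis homeobox family.

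Homeobox genes encode transcription factors that bind DNA through a homeodomain and set the identity of body regions, organs and neuron types. *Hox* genes lie in clusters and are switched on in the order of their position, so that genes at the 3′ end act in the hindbrain and anterior trunk and genes at the 5′ end act in the posterior trunk, limbs and genitalia. In embryonic stem cells (ESCs) many of these loci are known as bivalent loci, held low by Polycomb repressive complex 2 (PRC2), which methylates lysine 27 of histone H3 and contains RBBP4 or RBBP7 as a histone-binding subunit. Histone methylation at the loci was not analysed here, so Polycomb occupancy of each gene is background and not a measurement.

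RNA was measured in E14 mouse ESCs with *Rbbp4*+/+ genotype, which served as control, and in 2 *Rbbp4* mutant lines made from them with CRISPR-Cas9, with 3 libraries per line and 9 in all. In *Rbbp4* Ins/Ins both alleles hold a short in-frame insertion, while the alleles of *Rbbp4* Ins/Del differ, with that insertion on 1 and a short in-frame deletion on the other, so neither line is a null. Each mutant line is 1 clone, the strain label of all libraries is 12910la, and all cells were grown with serum and leukemia inhibitory factor. Nothing in the labels says that libraries of a line came from separate cultures, so p-values measure the spread between these libraries only, which may be technical.

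The libraries held between 15838064 and 21366868 counted reads, which were scaled to a common size with TMM factors and are given below as normalized reads, meaning reads in a library of average size. The edited gene *Rbbp4* had 9932, 9965 and 10117 normalized reads in the control libraries, 5485, 5551 and 5776 in the Ins/Ins libraries and 10129, 10344 and 10603 in the Ins/Del libraries. It fell in Ins/Ins by a log2 change of -0.84 (SE 0.029, adjusted p = 1.8e-25) and did not pass the threshold in Ins/Del at 0.05 (SE 0.028, adjusted p = 0.11), where adjustment is that of Benjamini and Hochberg and the test is edgeR's. Because both edits are short, the read count of *Rbbp4* does not check them. All 12 embryonic stem cell markers examined had enough reads for a test, and their summed level was 107748 to 112534 normalized reads in the control libraries, 136368 to 137983 in the Ins/Ins libraries and 135096 to 138683 in the Ins/Del libraries.

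The start regions of the members are known for their density of CG dinucleotides, and 5 are printed to show what such a sequence looks like beside genes with different RNA levels in these cells. The promoter table of RefSeq on GRCm38.p6 matched 57 of the 89 members, or 64.0%, which is too few for a statement over the members. Each sequence runs from 250 bases before to 50 bases after the start of the gene in that promoter table, 5′ to 3′ on its own strand, with every CG in capitals. *Hoxa5* and *Msx1* fell in both mutant lines, *Nkx2-4* rose in both, *Six4* had the highest level of all members, and *Hoxa13* had at most 3 reads in every library.
Hoxa5: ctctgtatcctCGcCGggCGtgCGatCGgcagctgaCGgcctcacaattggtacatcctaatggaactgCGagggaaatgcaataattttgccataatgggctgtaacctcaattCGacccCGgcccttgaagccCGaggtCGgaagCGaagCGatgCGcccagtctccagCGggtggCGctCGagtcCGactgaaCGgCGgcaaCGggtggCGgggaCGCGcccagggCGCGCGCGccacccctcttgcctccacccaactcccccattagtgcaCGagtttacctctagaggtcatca
Msx1: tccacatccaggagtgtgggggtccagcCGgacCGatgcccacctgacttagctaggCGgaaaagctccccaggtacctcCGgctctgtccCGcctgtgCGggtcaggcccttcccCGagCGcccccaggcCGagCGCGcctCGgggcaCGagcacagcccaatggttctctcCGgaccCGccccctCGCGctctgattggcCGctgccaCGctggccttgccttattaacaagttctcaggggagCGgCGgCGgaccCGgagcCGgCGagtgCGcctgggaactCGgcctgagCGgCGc
Nkx2-4: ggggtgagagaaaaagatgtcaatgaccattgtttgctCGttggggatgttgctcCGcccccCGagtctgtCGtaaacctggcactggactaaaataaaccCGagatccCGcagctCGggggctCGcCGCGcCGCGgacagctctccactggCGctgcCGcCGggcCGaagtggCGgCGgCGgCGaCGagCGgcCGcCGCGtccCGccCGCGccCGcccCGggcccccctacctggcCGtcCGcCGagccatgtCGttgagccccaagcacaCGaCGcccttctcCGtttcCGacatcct
Six4: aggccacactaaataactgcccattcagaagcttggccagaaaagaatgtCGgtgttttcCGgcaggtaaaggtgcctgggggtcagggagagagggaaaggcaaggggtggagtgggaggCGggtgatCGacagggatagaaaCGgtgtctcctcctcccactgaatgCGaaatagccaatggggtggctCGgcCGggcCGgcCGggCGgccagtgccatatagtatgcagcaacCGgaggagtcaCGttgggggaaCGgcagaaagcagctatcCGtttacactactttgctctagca
Hoxa13: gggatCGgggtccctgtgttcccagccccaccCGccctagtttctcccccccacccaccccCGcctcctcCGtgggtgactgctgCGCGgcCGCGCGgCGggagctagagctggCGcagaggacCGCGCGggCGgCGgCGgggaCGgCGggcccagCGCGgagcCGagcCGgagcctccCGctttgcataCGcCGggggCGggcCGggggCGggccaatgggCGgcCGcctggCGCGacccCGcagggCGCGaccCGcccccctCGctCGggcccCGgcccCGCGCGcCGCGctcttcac
The *Hoxa5* window lies at chr6:52204538-52204837 and the *Hoxa13* window at chr6:52260831-52261130, both on the minus strand. The *Msx1* window lies at chr5:37824536-37824835, the *Nkx2-4* window at chr2:147085296-147085595 and the *Six4* window at chr12:73113376-73113675, also on the minus strand. The windows of *Hoxa5* and *Msx1* held 29 CG each, a number that 12.8% of the 27025 promoters in the table reached or passed. *Nkx2-4* held 38 CG, which 4.78% of promoters reached, and *Hoxa13* held 45, which 1.85% reached. The GENCODE start of *Nkx2-4*, at chr2:147085445, lies upstream of the start used for its window. That GENCODE start still lies inside the window, so the 38 CG are counted over bases on both sides of it. The window of the most abundant member, *Six4*, held 15 CG, which 35.2% of promoters reached. The motif searched was CG, which reads the same on both strands, and the count describes the letters of these windows only.

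Most of the 89 genes were near the limit of detection in ESCs of every genotype. A gene was called silent when it had at most 3 reads in each of the 9 libraries, which was the case for 22 members (24.7%) and for 8071 of the 25239 symbols (32.0%). The silent members were 11 *Hox* genes and 11 others, and only *Nkx2-6*, a cardiac and pharyngeal NK2 factor, had no read in any library, which allows up to 3 reads per library. A further 43 members had more than 3 reads in some library but too few for the test, and 24 members (27.0%) were tested, against 14125 of all symbols (56.0%). The tested share was smaller among *Hox* genes, with 6 of 39, than among the others, with 18 of 50. With other limits the number of silent members was 55 at no more than 10 reads in every library and 68 below 1 CPM in every library. The shares of all symbols at these other limits are not given here, so these numbers do not set the members apart from other genes.

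**Figure D1:**
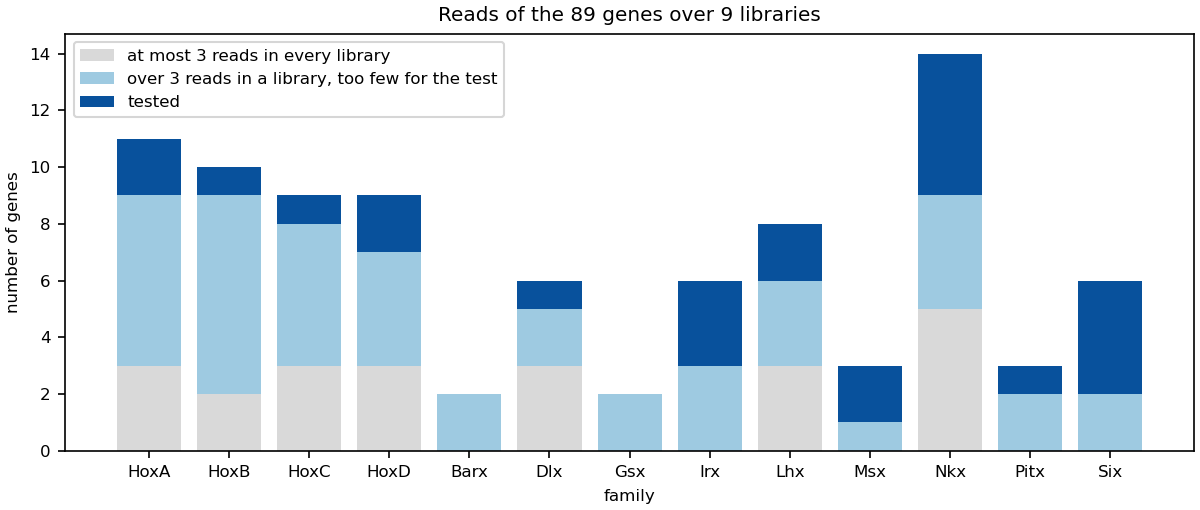
Number of genes (y axis) in each *Hox* cluster and homeobox family (x axis), split by reads over the 9 libraries into at most 3 reads in every library (grey), more than 3 reads in a library but too few for the test (light blue) and tested (dark blue). The tested genes are 24 of the 89, and *Hox* clusters contribute 6 of them.

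More members were at the floor in the mutant lines than in the control. Within the 3 control libraries 32 members (36.0%) had at most 3 reads in each library, and the number was 43 (48.3%) in Ins/Ins and 43 (48.3%) in Ins/Del. Over all symbols the same share was 36.3% in the control, 36.2% in Ins/Ins and 36.0% in Ins/Del. For the *Hox* genes the number at the floor was 17 in the control and 21 in each mutant line. In bulk RNA, fewer cells that express a gene and less RNA of it per cell cannot be told apart. *Hoxb1*, *Hoxb3*, *Irx5* and *Six6* were above the floor in all 3 control libraries and at the floor in all 6 mutant libraries, as were 111 of all symbols. The reverse held for *Nkx2-4* among the members and for 125 of all symbols.

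Each mutant line was compared with the same 3 control libraries, so the values of both lines are given side by side and are not independent. A gene was called changed when the quasi-likelihood test of edgeR gave 0.01 or less after Benjamini-Hochberg adjustment over all 14125 tested genes. In Ins/Ins, 5 of the 24 tested members (20.8%) rose, beside 29.0% of all tested genes, and 9 (37.5%) fell, beside 29.4%. In Ins/Del, 5 (20.8%) rose, beside 30.6%, and 11 (45.8%) fell, beside 31.9%. Without Ins/Del replicate 2 the number that rose in Ins/Del was 3, with *Lhx6* among those lost. In both lines 4 members rose, with *Hoxc13*, *Nkx2-4* and *Nkx6-3* among them, which is 16.7% of the tested members beside 25.6% of all tested genes. In both lines 9 members fell, with *Hoxa5*, *Irx3*, *Irx5*, *Msx1*, *Nkx6-2* and *Six5* among them, which is 37.5% of the tested members beside 26.7%.

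Among changes above 2-fold, 8 members (33.3%) fell in Ins/Ins, beside 8.96% of all tested genes, and 3 (12.5%) rose, beside 7.00%. In Ins/Del, 8 (33.3%) fell by more than 2-fold, beside 10.2% of all tested genes, and 2 (8.33%) rose by as much, beside 8.45%. The median log2 fold change of the 24 tested members was -0.22 in Ins/Ins and -0.22 in Ins/Del, and over all tested genes it was 0.0038 and -0.01. These counts and medians carry a limit. *Hoxa5*, *Hoxd1*, *Irx3*, *Irx5*, *Msx1*, *Nkx2-4* and *Six2* reached the read minimum of the test in only 3 libraries, and *Nkx6-3* reached it only in mutant libraries. A member that entered through the line in which it is high had to differ, so neither the counts nor the medians support a statement on the members.

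**Figure D2:**
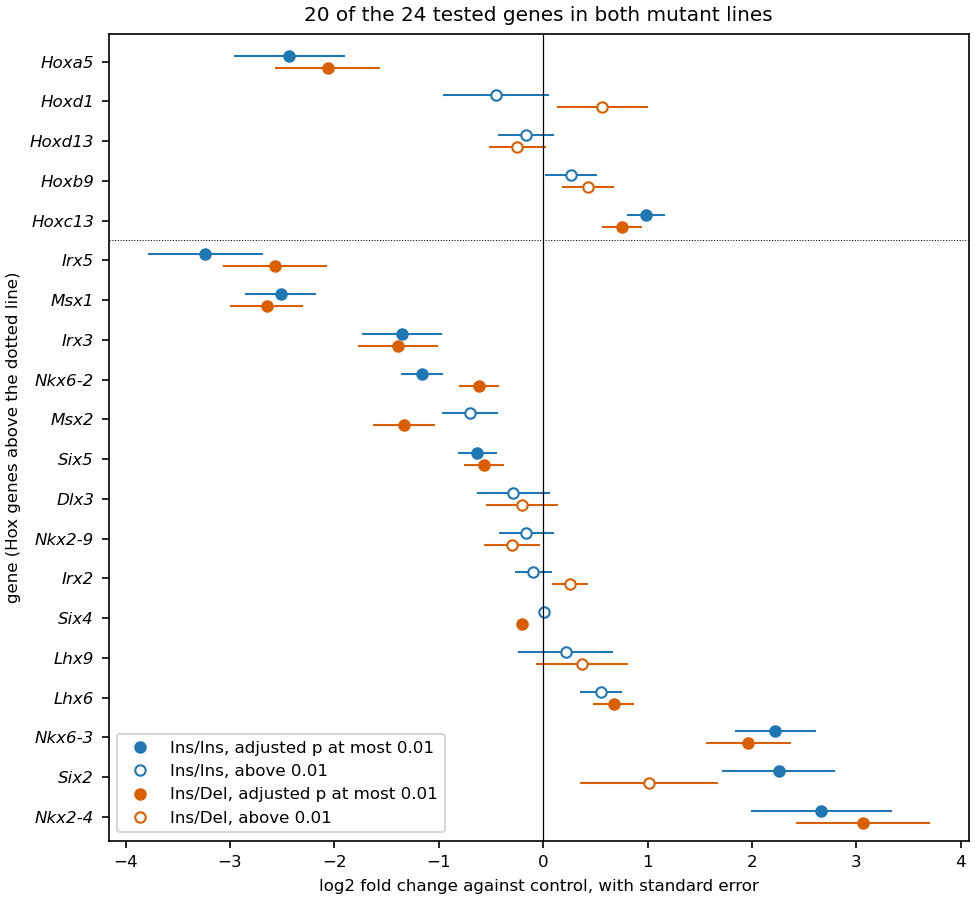
Log2 fold change against control with its standard error (x axis) for 20 of the 24 tested genes (y axis), *Hox* genes above the dotted line, Ins/Ins in blue and Ins/Del in orange, filled where the adjusted p was at most 0.01. Filled points of *Hoxa5*, *Irx5* and *Msx1* lie below -2 in both lines, and those of *Nkx2-4* lie above 2.

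In the *HoxA* cluster on chromosome 6, *Hoxa5*, which patterns the neck, lung and foregut, was tested. It lies at chr6:52201754-52204587 on the minus strand, overlaps no annotated exon of another gene and had 13, 13 and 14 reads in the control libraries, 2, 2 and 3 in the Ins/Ins libraries and 5, 2 and 2 in the Ins/Del libraries. *Hoxa5* reached the read minimum of the test only in the 3 control libraries, where it is high, so it could be tested only as a gene that differs and its p-values are not support for the fall. Its log2 fold changes were -2.43 (SE 0.53, adjusted p = 0.00012) in Ins/Ins and -2.06 (SE 0.50, adjusted p = 0.00043) in Ins/Del (edgeR, Benjamini-Hochberg adjustment). *Hoxa3*, a gene of the pharyngeal arches and thymus, was not tested for lack of reads, with 9, 18 and 12 reads in the control libraries, 6, 2 and 1 in the Ins/Ins libraries and 1, 2 and 5 in the Ins/Del libraries. The summed reads of *Hoxa3* were 4.27-fold lower (95% counting interval 2.03 to 10.02) in Ins/Ins and 4.72-fold lower (95% counting interval 2.17 to 11.7) in Ins/Del, where the intervals cover counting error only. *Hoxa2*, the gene that specifies the second pharyngeal arch, had 1, 5 and 4 reads in the control libraries, 0, 1 and 0 in the Ins/Ins libraries and 1, 0 and 0 in the Ins/Del libraries. *Hoxa4*, *Hoxa7*, *Hoxa9* and *Hoxa10* had at most 6 reads in any library, and *Hoxa6*, *Hoxa11* and *Hoxa13* were silent. Genes on the opposite strand overlap 25.42% of the exon length of *Hoxa3* and 34.98% of that of *Hoxa11*, and since the strand setting of the counting is not given in the sources used here, reads in such stretches cannot be assigned to 1 gene.

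In the *HoxB* cluster on chromosome 11 the only tested gene was *Hoxb9*, a gene of the thoracic axial skeleton. It had 27.4, 28.3 and 17.3 normalized reads in the control libraries, 34.2, 24.8 and 28.5 in the Ins/Ins libraries and 35.8, 34.3 and 28.9 in the Ins/Del libraries, with log2 differences of 0.27 (SE 0.25, adjusted p = 0.36) in Ins/Ins and 0.43 (SE 0.25, adjusted p = 0.12) in Ins/Del that did not pass edgeR's test after Benjamini-Hochberg adjustment. *Hoxb3*, which acts in the hindbrain and thyroid, had 11, 16 and 7 reads in the control libraries, 0, 0 and 2 in the Ins/Ins libraries and 1, 0 and 0 in the Ins/Del libraries. Its summed reads were 16.7-fold lower (95% counting interval 4.29 to 144) in Ins/Ins and 32.9-fold lower (95% counting interval 5.52 to 1338) in Ins/Del, and the antisense RNA *Hoxb3os* overlaps 52.93% of its exon length. *Hoxb1*, which sets the identity of rhombomere 4, had 6, 6 and 4 reads in the control libraries, 2, 2 and 1 in the Ins/Ins libraries and 0, 1 and 0 in the Ins/Del libraries. *Hoxb8*, a trunk and hematopoietic gene, had 7, 10 and 6 reads in the control libraries, 4, 1 and 3 in the Ins/Ins libraries and 0, 3 and 0 in the Ins/Del libraries. *Hoxb2* and *Hoxb4* had at most 8 and 13 reads in a library, *Hoxb7* at most 6 and *Hoxb13* at most 14, and *Hoxb5* and *Hoxb6* were silent. The 10 genes summed to 75.1 ± 12.3 normalized reads in the control, 47.7 ± 3.25 in Ins/Ins and 50.7 ± 9.56 in Ins/Del (SD, n = 3).

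The *HoxC* cluster on chromosome 15 had a higher summed level in both mutant lines, and its only tested gene was *Hoxc13*, a regulator of hair keratin genes at the 5′ end of the cluster. *Hoxc13* had 33.3, 41.9 and 42.2 normalized reads in the control libraries, 64.2, 71.1 and 97.3 in the Ins/Ins libraries and 62.4, 68.6 and 66.0 in the Ins/Del libraries. Every mutant library lay above every control library, and the gene rose 1.98-fold in Ins/Ins and 1.68-fold in Ins/Del, with log2 fold changes of 0.98 (SE 0.18, adjusted p = 1.3e-05) and 0.76 (SE 0.19, adjusted p = 0.00059) (edgeR, Benjamini-Hochberg adjustment). The gene lies at chr15:102921103-102928814 on the plus strand, and no annotated exon of another gene overlaps it. *Hoxc4*, a cervical gene at the other end of the cluster, was not tested and had 2, 0 and 2 reads in the control libraries, 6, 6 and 5 in the Ins/Ins libraries and 3, 4 and 5 in the Ins/Del libraries. *Hoxc8*, *Hoxc9*, *Hoxc10* and *Hoxc12* had at most 7 reads in any library, and *Hoxc5*, *Hoxc6* and *Hoxc11* were silent. The summed *HoxC* level was 179.9% of the control in Ins/Ins and 164% in Ins/Del, and without *Hoxc13* it was 108% and 151%, from a control mean of 9.78 ± 4.05 normalized reads (SD, n = 3).

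In the *HoxD* cluster on chromosome 2 neither tested gene changed past the threshold. *Hoxd13*, which patterns the digits, had 28.2, 30.4 and 19.5 normalized reads in the control libraries, 19.7, 27.1 and 24.3 in the Ins/Ins libraries and 21.5, 19.9 and 25.5 in the Ins/Del libraries, and the groups overlapped in both lines. *Hoxd1*, the most 3′ gene of the cluster, had 6.84, 7.33 and 10.8 normalized reads in the control libraries, 9.41, 6.77 and 1.06 in the Ins/Ins libraries and 10.2, 11.7 and 15.0 in the Ins/Del libraries. Its log2 differences from the control were -0.45 (SE 0.51, adjusted p = 0.44) in Ins/Ins and 0.57 (SE 0.44, adjusted p = 0.25) in Ins/Del in edgeR after Benjamini-Hochberg adjustment, and Ins/Ins replicate 3 stood below all other libraries. Without it the Ins/Ins log2 difference of *Hoxd1* was 0.0084. *Hoxd8* and *Hoxd9* were not tested. *Hoxd9* had 16, 11 and 5 reads in the control libraries, 3, 2 and 5 in the Ins/Ins libraries and 2, 4 and 1 in the Ins/Del libraries, and *Hoxd8* had 12, 12 and 5 reads in the control libraries, 2, 5 and 2 in the Ins/Ins libraries and 4, 3 and 5 in the Ins/Del libraries. *Hoxd4* and *Hoxd11* had at most 6 reads in a library, and *Hoxd3*, *Hoxd10* and *Hoxd12* were silent. Other genes on the same strand, each other and *Gm28230*, overlap 62.35% of the exon length of *Hoxd3* and 52.31% of that of *Hoxd4*, so reads there cannot be assigned to either.

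The summed levels were also taken by position along the clusters. Paralog groups 4 to 8, in the middle of the clusters, summed to 62.9 ± 3.08 normalized reads in the control, 28.3 ± 6.92 in Ins/Ins and 28.3 ± 3.05 in Ins/Del (SD, n = 3), or 45.0% and 45.0% of the control. Groups 9 to 13 summed to 123 ± 6.78 normalized reads in the control, 154 ± 15.2 in Ins/Ins and 148 ± 9.88 in Ins/Del (SD, n = 3), or 125% and 119.6%. Without *Hoxc13* groups 9 to 13 summed to 84.3 ± 9.63 normalized reads in the control (SD, n = 3). They summed to 76.2 ± 4.39 in Ins/Ins and 82.0 ± 8.09 in Ins/Del, or 90.4% and 97.3% of the control. The libraries of both lines overlapped those of the control. In groups 1 to 3 the mean of 8 of 8 genes was below the control in Ins/Ins and of 7 of 8 in Ins/Del, in groups 4 to 8 it was 14 and 12 of 15, and in groups 9 to 13 it was 7 and 8 of 16. These sums and counts are descriptions without a test, and most of the genes in them had few reads.

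**Figure D3:**
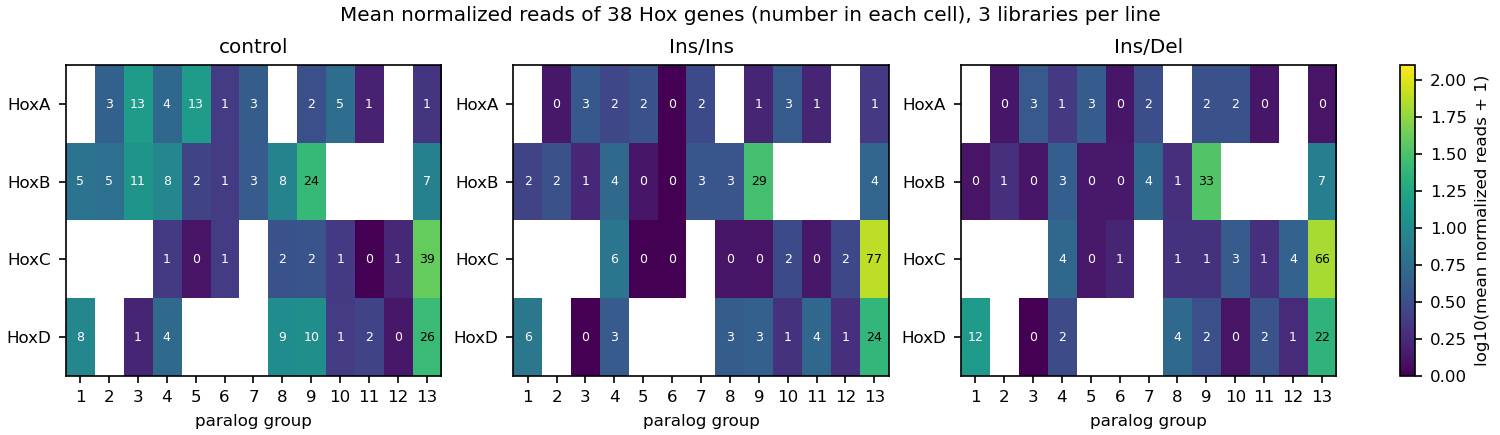
Mean normalized reads of 38 *Hox* genes in control, Ins/Ins and Ins/Del (3 panels, 3 libraries each), with clusters as rows, paralog groups 1 to 13 as columns and color on a log10 scale; white cells have no gene or no value shown. The cell of *Hoxc13* changes from 39.2 in the control to 77.5 and 65.6, and that of *Hoxa5* from 13.3 to 2.38 and 3.08.

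Of the *Pitx* genes, *Pitx1*, a hindlimb gene, had 4, 3 and 4 reads in the control libraries, 0, 1 and 2 in the Ins/Ins libraries and 0, 0 and 0 in the Ins/Del libraries. *Pitx3*, which acts in lens and dopamine neurons, had 0, 1 and 1 reads in the control libraries, 7, 6 and 2 in the Ins/Ins libraries and 4, 2 and 1 in the Ins/Del libraries.

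The *Msx* genes, targets of BMP signaling in limb, tooth and neural crest, had 2 tested members, of which *Msx1* fell in both lines and *Msx2* in 1. *Msx1*, at chr5:37820485-37824583 on the minus strand, had 33.3, 38.8 and 38.98 normalized reads in the control libraries, 4.28, 10.2 and 5.29 in the Ins/Ins libraries and 3.07, 6.32 and 8.10 in the Ins/Del libraries. *Msx1* also passed the read minimum only in the 3 control libraries, so its p-values carry the same limit as those of *Hoxa5*, and its log2 fold changes were -2.51 (SE 0.34, adjusted p = 3.5e-08) in Ins/Ins and -2.65 (SE 0.35, adjusted p = 1.7e-08) in Ins/Del (edgeR, Benjamini-Hochberg adjustment). *Msx2* had 26.5, 32.5 and 29.2 normalized reads in the control libraries, 20.5, 14.7 and 18.0 in the Ins/Ins libraries and 12.3, 9.93 and 12.7 in the Ins/Del libraries. It fell in Ins/Del with a log2 fold change of -1.33 (SE 0.30, adjusted p = 0.00015), while the Ins/Ins value of -0.70 (SE 0.27, adjusted p = 0.021) did not pass edgeR's test after Benjamini-Hochberg adjustment. The difference of *Msx2* between the mutant lines was -0.63 (SE 0.33, adjusted p = 0.19) in the same edgeR test with Benjamini-Hochberg adjustment, so the lines were not shown to differ. *Msx3*, a dorsal neural tube gene, had 9, 8 and 4 reads in the control libraries, 2, 5 and 1 in the Ins/Ins libraries and 0, 2 and 4 in the Ins/Del libraries and was not tested.

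**Figure D4:**
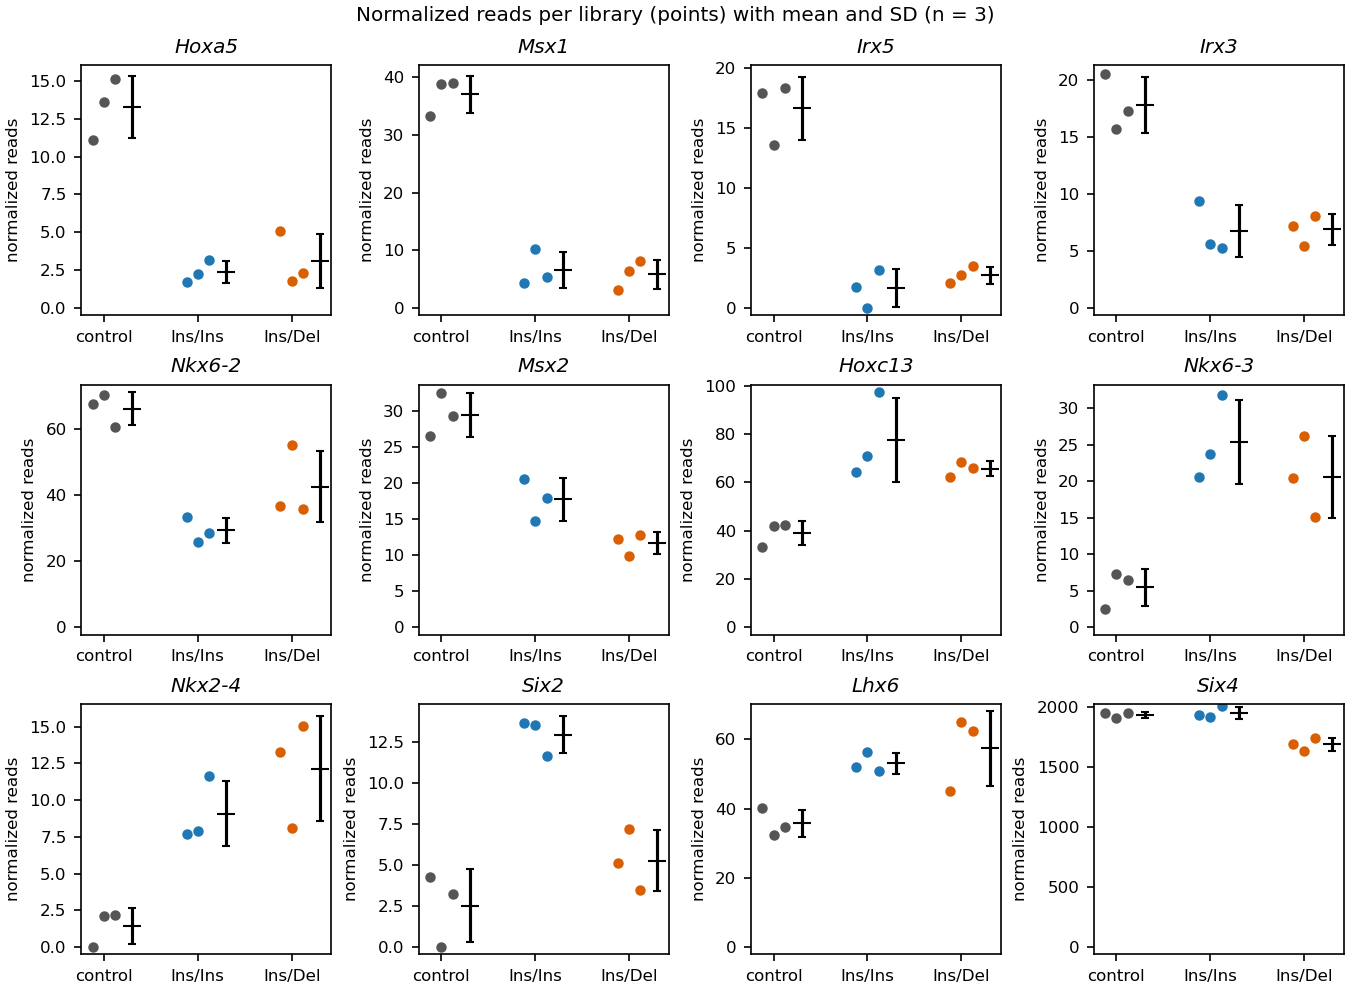
Normalized reads (y axis, from 0) of 12 members in each control, Ins/Ins and Ins/Del library (points, 3 per line), with the mean and SD at the right of each group in black. In the 6 panels from *Hoxa5* to *Msx2* all mutant points lie below the control points, and in the panels of *Hoxc13*, *Nkx6-3* and *Nkx2-4* all lie above them.

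Of the 3 tested Iroquois genes, *Irx3* and *Irx5* fell in both lines and *Irx2* did not pass the test. *Irx5*, a heart and limb gene at chr8:92357625-92376286 on the plus strand, had 21, 13 and 17 reads in the control libraries, 2, 0 and 3 in the Ins/Ins libraries and 2, 3 and 3 in the Ins/Del libraries. Its summed reads were 10.04-fold lower (95% counting interval 4.03 to 32.2) in Ins/Ins and 6.17-fold lower (95% counting interval 2.91 to 15.1) in Ins/Del, and the fitted log2 fold changes were -3.23 (SE 0.55, adjusted p = 3e-06) and -2.57 (SE 0.50, adjusted p = 2.2e-05) from edgeR with Benjamini-Hochberg adjustment. *Irx5* and *Irx3* passed the read minimum only in the 3 control libraries, so their p-values carry the same limit. *Irx3*, the neighbor of *Irx5* on chromosome 8, had 24, 15 and 16 reads in the control libraries, 11, 5 and 5 in the Ins/Ins libraries and 7, 6 and 7 in the Ins/Del libraries, with log2 fold changes of -1.35 (SE 0.38, adjusted p = 0.002) and -1.39 (SE 0.38, adjusted p = 0.0016) from the same edgeR test. The *Irx3* call was lost in DESeq2 (adjusted p = 0.015 in Ins/Ins and 0.014 in Ins/Del), without control replicate 1 (0.017 and 0.014), without Ins/Ins replicates 2 or 3 in Ins/Ins (0.012 and 0.015) and without Ins/Del replicate 2 in Ins/Del (0.015), all with Benjamini-Hochberg adjustment. *Irx2*, from the other Iroquois cluster on chromosome 13, had 71.0, 45.0 and 69.3 normalized reads in the control libraries, 59.9, 60.9 and 53.9 in the Ins/Ins libraries and 77.7, 80.3 and 63.6 in the Ins/Del libraries, and its groups overlapped in both comparisons. *Irx1*, also of that cluster, had 3, 15 and 20 reads in the control libraries, 0, 1 and 1 in the Ins/Ins libraries and 1, 2 and 4 in the Ins/Del libraries. *Irx4*, a ventricle gene, had at most 13 reads in a library and *Irx6* at most 5.

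The NK-class genes held changes in both directions. *Nkx6-2*, a ventral neural tube and oligodendrocyte factor, had 67.5, 70.2 and 60.6 normalized reads in the control libraries, 33.4, 26.0 and 28.5 in the Ins/Ins libraries and 36.8, 55.0 and 35.9 in the Ins/Del libraries. Its log2 fold changes were -1.16 (SE 0.20, adjusted p = 4.4e-06) in Ins/Ins and -0.61 (SE 0.19, adjusted p = 0.004) in Ins/Del (edgeR, Benjamini-Hochberg adjustment). The Ins/Del call of *Nkx6-2* was lost in DESeq2 (adjusted p = 0.020) and without control replicate 1 (0.014), control replicate 2 (0.019), Ins/Del replicate 1 (0.031) or Ins/Del replicate 3 (0.028), all with Benjamini-Hochberg adjustment. *Inpp5a* overlaps 12.9% of its exon length on the opposite strand. *Nkx6-3*, a gastric and caudal hindbrain factor, went the other way, with 2.56, 7.33 and 6.496 normalized reads in the control libraries, 20.5, 23.7 and 31.7 in the Ins/Ins libraries and 20.4, 26.2 and 15.0 in the Ins/Del libraries. Every mutant library lay above the control, and the log2 fold changes were 2.23 (SE 0.39, adjusted p = 5e-06) and 1.97 (SE 0.41, adjusted p = 5.3e-05) (edgeR, Benjamini-Hochberg adjustment). *Nkx6-3* reached the read minimum of the test only in mutant libraries, where it is high, so these p-values are not support for the rise.

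*Nkx2-4*, a forebrain and thyroid relative of *Nkx2-1*, was at the floor in the control with 0, 2 and 2 reads in the control libraries, 9, 7 and 11 in the Ins/Ins libraries and 13, 9 and 13 in the Ins/Del libraries. Its summed reads were 6.86-fold higher (95% counting interval 2.39 to 27.0) in Ins/Ins and 9.04-fold higher (95% counting interval 3.23 to 35.0) in Ins/Del. In edgeR the adjusted p was 0.00076 in Ins/Ins and 5.9e-05 in Ins/Del after Benjamini-Hochberg adjustment, and without control replicate 1, the library with no read of it, the Ins/Ins value was 0.012. The gene passed the read minimum only in 3 mutant libraries, so these p-values are not support for the rise. *Nkx2-9*, a floor plate neighbor of *Nkx2-1*, had 41.9, 22.0 and 31.4 normalized reads in the control libraries, 33.4, 20.3 and 31.7 in the Ins/Ins libraries and 26.6, 18.9 and 34.7 in the Ins/Del libraries, with overlapping groups. *Nkx2-5*, the cardiac NK2 gene, had 8, 3 and 7 reads in the control libraries, 2, 0 and 2 in the Ins/Ins libraries and 1, 1 and 1 in the Ins/Del libraries. *Nkx1-1*, *Nkx2-1* and *Nkx2-2* had at most 8 reads in a library, and *Nkx1-2*, *Nkx2-3*, *Nkx2-6*, *Nkx3-2* and *Nkx6-1* were silent.

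The 6 homologs of fly sine oculis, which act in eye, muscle, kidney and sensory placodes, were the family with the most reads. *Six4* alone took between 52.8% and 63.1% of the reads of all members in a library, although the members together took only 0.0150% to 0.0203% of a library. *Six4*, at chr12:73099609-73113456 on the minus strand, had 1954, 1905 and 1949 normalized reads in the control libraries, 1929.7, 1918 and 2004 in the Ins/Ins libraries and 1693, 1633 and 1744 in the Ins/Del libraries. *Six2*, a nephron progenitor gene, had 5, 0 and 3 reads in the control libraries, 16, 12 and 11 in the Ins/Ins libraries and 5, 8 and 3 in the Ins/Del libraries. It rose in Ins/Ins, by 2.26 (SE 0.54, adjusted p = 0.00041) on the log2 scale, and its Ins/Del value of 1.01 (SE 0.66, adjusted p = 0.17) did not pass edgeR's test with Benjamini-Hochberg adjustment. *Six2* passed the read minimum only in the 3 Ins/Ins libraries, where it is high, so this p-value is not support for the rise. The difference of *Six2* between the lines was -1.24 (SE 0.47, adjusted p = 0.057) in the same edgeR test, so the lines were not shown to differ.

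*Six5* had 55.6, 66.0 and 55.2 normalized reads in the control libraries, 39.3, 31.6 and 42.3 in the Ins/Ins libraries and 36.8, 39.7 and 42.8 in the Ins/Del libraries, with log2 fold changes of -0.63 (SE 0.19, adjusted p = 0.0037) in Ins/Ins and -0.57 (SE 0.19, adjusted p = 0.0077) in Ins/Del from edgeR with Benjamini-Hochberg adjustment. These calls were close to the limit: the Ins/Ins call was lost in DESeq2 and without control replicate 2, Ins/Ins replicate 1 or Ins/Ins replicate 2, with adjusted p between 0.011 and 0.028. The Ins/Del call was lost in DESeq2 and without any 1 control or Ins/Del library or Ins/Ins replicate 1, with adjusted p between 0.010 and 0.049. *Six6*, the retina and hypothalamus gene on the same chromosome as *Six4*, had 13, 8 and 9 reads in the control libraries, 1, 0 and 1 in the Ins/Ins libraries and 0, 0 and 2 in the Ins/Del libraries. Its summed reads were 14.8-fold lower (95% counting interval 3.75 to 128) in Ins/Ins and 14.5-fold lower (95% counting interval 3.68 to 125) in Ins/Del. *Six3*, a forebrain gene, had at most 5 reads in a library.

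Among the remaining families, the only called change was that of *Lhx6*, a gene of cortical interneurons and tooth mesenchyme. *Lhx6* had 40.2, 32.5 and 34.6 normalized reads in the control libraries, 52.2, 56.4 and 50.7 in the Ins/Ins libraries and 45.0, 65.0 and 62.5 in the Ins/Del libraries, with a log2 fold change of 0.67 (SE 0.20, adjusted p = 0.0025) in Ins/Del and of 0.56 (SE 0.20, adjusted p = 0.013) in Ins/Ins, which did not pass edgeR's test with Benjamini-Hochberg adjustment. The call was lost in edgeR after Benjamini-Hochberg adjustment without control replicate 2 (adjusted p = 0.012), Ins/Del replicate 2 (0.027) or Ins/Del replicate 3 (0.012). *Lhx9* had 4, 15 and 8 reads in the control libraries, 10, 9 and 12 in the Ins/Ins libraries and 14, 8 and 12 in the Ins/Del libraries and *Dlx3*, a placenta and skin gene, had 23, 13 and 15 reads in the control libraries, 15, 14 and 12 in the Ins/Ins libraries and 9, 25 and 9 in the Ins/Del libraries, and both had overlapping groups. *Barx1*, which acts in stomach and jaw, was not tested and had 15, 5 and 9 reads in the control libraries, 6, 0 and 0 in the Ins/Ins libraries and 2, 1 and 3 in the Ins/Del libraries. The other *Barx*, *Dlx*, *Gsx* and *Lhx* genes had at most 10 reads in any library, and *Dlx1*, *Dlx4*, *Dlx6*, *Lhx1*, *Lhx4* and *Lhx8* were silent.

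Summed over each family, the *Msx* genes were at 37.0% and 26.8% of the control in Ins/Ins and Ins/Del and the *Irx* genes at 58.8% and 75.1%. The *Lhx* genes were at 139% and 153%, carried by *Lhx6*, and the sine oculis family at 105% and 91.4%, carried by *Six4*. The 3 *Hox* clusters B, C and D were at 63.5%, 179.9% and 72.3% in Ins/Ins and at 67.6%, 164% and 74.7% in Ins/Del. The few reads of the *Barx*, *Dlx* and *Gsx* genes make their sums imprecise.

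**Figure D5:**
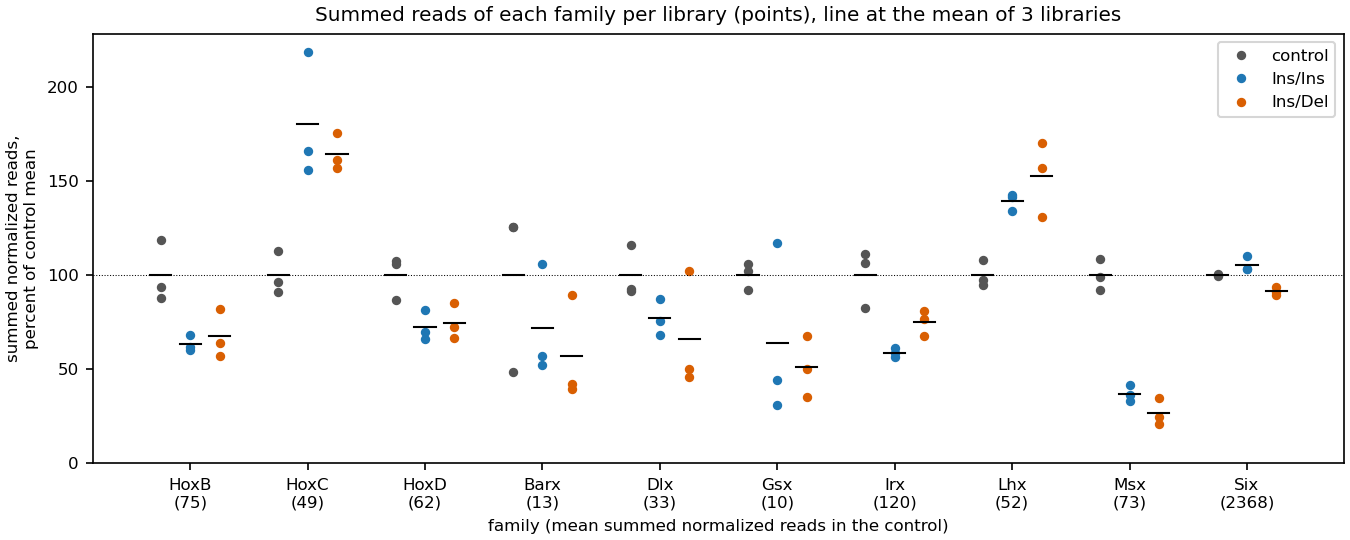
Summed normalized reads of each family as percent of its control mean (y axis, from 0), per library (points) with the mean of 3 libraries (short lines), for 3 *Hox* clusters and 7 families (x axis, with the control mean in parentheses). *Msx* lies below 50% in every mutant library, and *HoxC* and *Lhx* lie above the control in every mutant library.

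Low members were described together because single ones had too few reads for the main test. Of the 64 members with a read but without a test, the mean was below the control for 48 (75.0%) in Ins/Ins and 44 (68.8%) in Ins/Del. Of the 6828 symbols in the same position it was below the control for 45.7% and 44.3%. Their summed level was 50.04% of the control in Ins/Ins and 48.5% in Ins/Del, beside 91.0% and 100.5% for the 6828 symbols. When every symbol with at least 1 read entered the fit, 14 of 88 members fell in Ins/Ins (15.9%, beside 20.1% of 20953 genes) and 5 rose (5.68%, beside 20.3%). In Ins/Del of that fit, 21 fell (23.9%, beside 22.0%) and 5 rose (5.68%, beside 21.5%). *Barx1*, *Hoxa3*, *Hoxb3*, *Irx1* and *Six6* were the members added among those that fell in both lines, and *Hoxb1*, *Hoxb8*, *Hoxd9*, *Lhx5* and *Pitx1* were further ones in Ins/Del.

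The mutant lines were also compared with each other. Of the 24 tested members, 0 were higher in Ins/Del than in Ins/Ins at an adjusted p of at most 0.01, beside 6.17% of all tested genes, and 1 (4.17%) was lower, beside 4.64%. Without adjustment, 3 members (*Hoxd1*, *Irx2* and *Nkx6-2*) were higher and 3, with *Six2* and *Six4* among them, were lower at p below 0.05 in edgeR, and DESeq2 called 0 higher and 1 lower. The share of all tested genes at that unadjusted limit is not given here, so the unadjusted counts are not a result about the members. The called gene was *Six4*, with 1951 ± 46.7 normalized reads in Ins/Ins and 1689.9 ± 55.3 in Ins/Del (SD, n = 3), a log2 difference of -0.21 (SE 0.038, adjusted p = 9.3e-05) from edgeR with Benjamini-Hochberg adjustment. Its 3 Ins/Del libraries lay below all others, and the log2 fold change against the control was -0.20 (SE 0.038, adjusted p = 1.8e-05) in Ins/Del and 0.01 (SE 0.037, adjusted p = 0.82) in Ins/Ins in the same edgeR fit with Benjamini-Hochberg adjustment.

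Levels were compared between members per length of exon, as RPKM computed from the counts and the annotated exon length. In the control *Six4* was highest at 9.78 ± 0.134 (SD, n = 3). Among members described above, *Nkx6-2* was at 1.90 ± 0.142, *Nkx2-9* at 1.38 ± 0.432, *Six5* at 1.07 ± 0.112, *Irx2* at 1.03 ± 0.242, *Hoxc13* at 0.872 ± 0.112 and *Msx1* at 0.656 ± 0.0565 RPKM. In this order the means of *Nkx2-9*, *Six5* and *Irx2* each differed from that of the next gene by less than the larger SD of the pair. In Ins/Ins *Msx1* was at 0.116 ± 0.0557 and *Hoxc13* at 1.73 ± 0.389 RPKM, and in Ins/Del they were at 0.103 ± 0.0452 and 1.46 ± 0.0695.

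Genes that act with the *Hox* genes were counted from fixed lists, whose members were chosen with earlier results known. Cofactors of the TALE class bind DNA together with HOX proteins, and 6 of the 9 tested, with *Meis1*, *Meis2*, *Meis3*, *Pbx2* and *Pbx3* among them, fell in both lines and 0 rose in both, beside 26.7% and 25.6% of all tested genes, with median log2 fold changes of -0.56 in Ins/Ins and -0.97 in Ins/Del, where all tested genes had 0.0038 and -0.01. *Meis2* had 229.6 ± 2.68 normalized reads in the control, 22.4 ± 6.26 in Ins/Ins and 39.5 ± 14.2 in Ins/Del (SD, n = 3), with log2 fold changes of -3.31 and -2.56. *Meis1* changed by -2.31 and -2.61 and *Meis3* by -2.18 and -2.01. *Pbx4* rose in Ins/Ins and *Pknox2* in Ins/Del, both by less than 2-fold.

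Of 14 *Hox* regulators, ParaHox genes and genes beside the clusters, 12 were tested, 6 fell in both lines and 2 (*Atp5g1* and *Calcoco2*, which lie near *HoxB*) rose in both, beside 26.7% and 25.6% of all tested genes, with median log2 fold changes of -0.32 and -0.32. *Cdx2* and *Cdx4*, caudal-type regulators of trunk *Hox* genes, were among those that fell. Both reached the read minimum of the test only in the control libraries, where they are high. They could be tested only as genes that differ, and the counts and medians of this list carry that limit. *Cdx2* had 30.1 ± 8.10 normalized reads in the control, 2.40 ± 0.874 in Ins/Ins and 2.49 ± 1.90 in Ins/Del (SD, n = 3), with log2 fold changes of -3.60 and -3.58, and *Cdx4* had 24.99 ± 2.92 normalized reads in the control, 4.94 ± 2.81 in Ins/Ins and 4.15 ± 3.03 in Ins/Del (SD, n = 3), with -2.38 and -2.47. *Jazf1*, a zinc finger gene on the same chromosome as *HoxA*, changed by -1.52 and -1.40. *Evx2* and *Pdx1* were at the floor. Of 20 noncoding RNAs of these loci that were found, 12 were at the floor and 3 were tested: *Hotairm1* and *Halr1* fell in both lines and *Gm53* rose in both, beside the same shares. *Hotairm1* had 16.8 ± 5.47 normalized reads in the control, 2.75 ± 4.05 in Ins/Ins and 2.87 ± 2.55 in Ins/Del (SD, n = 3). This RNA also reached the read minimum only in the control libraries, so its fall carries the same limit.

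Other developmental transcription factors that are often named as Polycomb targets were a further list. Of 81 listed, 10 were at the floor and 41 were tested, of which 20 fell and 5 rose in both lines, beside 26.7% and 25.6% of all tested genes, with median log2 fold changes of -0.76 in Ins/Ins and -0.46 in Ins/Del. The largest changes in both lines were those of *T*, the primitive streak factor, with 44.6 ± 9.35 normalized reads in the control, 2.34 ± 1.18 in Ins/Ins and 0.301 ± 0.521 in Ins/Del (SD, n = 3), and of *Foxd1*, a kidney stroma factor, with 2.26 ± 1.06 normalized reads in the control, 30.5 ± 2.67 in Ins/Ins and 68.6 ± 10.3 in Ins/Del (SD, n = 3). *Pax6* had 678 ± 14.6 normalized reads in the control, 73.6 ± 4.26 in Ins/Ins and 30.1 ± 4.002 in Ins/Del (SD, n = 3) and *Pou3f1* had 1660.2 ± 96.4 normalized reads in the control, 164 ± 15.1 in Ins/Ins and 131 ± 22.5 in Ins/Del (SD, n = 3), both genes of neural development. *Olig3* had 37.9 ± 1.99 normalized reads in the control, 5.26 ± 0.737 in Ins/Ins and 3.81 ± 0.991 in Ins/Del (SD, n = 3) and *Neurod1* had 425 ± 18.2 normalized reads in the control, 57.4 ± 3.41 in Ins/Ins and 53.8 ± 7.82 in Ins/Del (SD, n = 3). *T* and *Olig3* reached the read minimum of the test only in the control libraries, and *Foxd1* only in mutant libraries. Such genes could be tested only as genes that differ, and the counts and medians of this list include them.

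The Polycomb genes themselves were expressed in all lines. Of 12 PRC2 genes tested, 7 rose in both lines (*Eed*, *Suz12*, *Jarid2*, *Aebp2*, *Phf1*, *Phf19* and *Epop*) and 0 fell in both, beside 25.6% and 26.7% of all tested genes, which is also the background of the counts that follow. The core methyltransferase *Ezh2* had 3647 ± 67.9 normalized reads in the control, 3485 ± 50.8 in Ins/Ins and 3793 ± 28.1 in Ins/Del (SD, n = 3) and *Eed*, the subunit that reads the mark, had 4842 ± 55.0 normalized reads in the control, 6909 ± 208 in Ins/Ins and 7647 ± 61.4 in Ins/Del (SD, n = 3). *Phf19*, a substoichiometric PRC2 subunit, changed most, with log2 fold changes of 1.55 and 1.47. Of 12 genes of canonical Polycomb repressive complex 1, 3 rose and 2 fell in both lines. Of 6 H3K27 demethylases and H3K4 methyltransferases, *Kmt2c* rose and *Kdm6a* and *Kdm6b* fell in both lines.

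Markers of other cell types moved beside these genes, and their part in the results was not tested. *Cdx2* and *T* carry the limit given above for genes that reached the read minimum only in the control libraries. Over all tested genes 25.6% rose and 26.7% fell in both lines. Of 12 embryonic stem cell markers, 7 rose and 1 (*Utf1*) fell in both lines. Of 6 tested neural progenitor markers, 3 (*Pax6*, *Nes* and *Sox3*) fell and 1 (*Tubb3*) rose in both lines, the summed level of the list was 3239 to 3269 normalized reads in the control, 1409 to 1533 in Ins/Ins and 1739 to 1822 in Ins/Del, and *Neurog2* and *Olig2* were at the floor. Of 9 tested trophectoderm markers, 4 fell and 2 rose in both lines, with *Cdx2*, *Krt8* and *Krt18* falling by more than 2-fold and summed levels of 5094 to 5580.1, 2850.0 to 3033 and 2031 to 2066. Of 5 tested fibroblast markers, 4 (*Col1a1*, *Col1a2*, *Col3a1* and *Pdgfrb*) fell and *Thy1* rose, with summed levels of 652 to 763, 298 to 309 and 364 to 407, and *Lum* and *Fap* were at the floor. Of 7 tested endoderm markers, 2 (*Gata4* and *Dab2*) fell and 1 (*Sox7*) rose, with summed levels of 389 to 413, 238 to 308 and 348 to 376, and *Ttr* was at the floor. Of 6 tested primitive streak and mesoderm markers, *T* fell and *Eomes* rose, with summed levels of 293 to 348, 399.6 to 432 and 387 to 408, and *Mesp1* and *Msgn1* were at the floor.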

How the data were processed

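RNA was sequenced from E14 mouse ESCs in 9 libraries, 3 of control *Rbbp4*+/+ cells and 3 of each *Rbbp4* mutant line, and the groups were taken from the sample labels. The authors deposited raw read counts per gene symbol for each library. Per the submitters' processing notes they used STAR 2.7.3, HTSeq, DESeq2 1.22.2 and the mm10 build. The strand setting of the counting, the HTSeq version and the gene annotation are not given in the sources used here.

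Counts were fitted with edgeR 4.0.16 in R 4.3.3 (TMM factors, filterByExpr with a minimum count of 10 and a minimum total of 15, glmQLFit and glmQLFTest) over all 9 libraries with 3 groups. Of 25239 symbols 14125 were tested, p-values were adjusted after Benjamini and Hochberg over all of them, and 0.01 was the limit. The study used the same limit, and no covariate was fitted here. The fit was also run on simulated data in which far fewer genes changed than were called here. That run does not check the fit at so many changes. Normalized reads are counts brought to the mean effective library size (total times TMM factor), and the SE of a log2 fold change is its size over the square root of the F statistic. A floor of 3 reads per library stands for a count of 0, and counting intervals are exact 95% intervals that cover counting error only. RPKM, positions and exon overlaps used GENCODE M21 on GRCm38, and promoters came from RefSeq on GRCm38.p6.

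Alternatives were DESeq2 1.42.0, other scalings, other read minimums, other thresholds, a replicate block and each library left out. A sum without *Hoxc13* was added after seeing the data. Members named by a fixed rule were those changed by more than 2-fold in either line, every *Hox* gene above 3 reads in a library, the 5 members with the most reads that passed in neither line, and those that differed between the lines. Some genes that meet the rule are not reported here, and the counts include them. Of each list, up to 6 genes past 2-fold in both lines were named. All further members and genes were named after their values were seen, to account for every member. The members and the lists were chosen with earlier results of these data known. Figures were drawn with Python 3.11.15 and matplotlib 3.10.9.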

Additional observations from a re-analysis of the deposited data

Results flagged for a closer look

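The level of *Six4* differed between the mutant lines by the test of the difference itself, with a log2 fold change of -0.21 in Ins/Del against Ins/Ins (SE 0.038, Benjamini-Hochberg adjusted p = 9.3e-05, edgeR). All 3 Ins/Del libraries were below all 3 Ins/Ins libraries.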

How the results depend on the processing

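Of 31 log2 fold changes of single genes past the threshold, 23 passed it under every other tool, scaling, read minimum, block and left-out library run in which the gene was tested, 8 were lost under some (those of *Irx3*, *Six5*, *Lhx6*, *Nkx6-2* and *Nkx2-4* are given beside the genes) and 0 reversed. *Nkx2-4* in both lines, *Hoxd1* in Ins/Ins and *Six2* in Ins/Del were tested in only 14 of the 15 alternatives. Of 16 that did not pass, 0 passed under an alternative and 5 changed sign. Without 1 library each, these ran from -0.76 to 0.038 for *Dlx3* in Ins/Del, and in Ins/Ins from -1.07 to 0.0084 for *Hoxd1*, -0.26 to 0.032 for *Irx2*, -0.35 to 0.12 for *Nkx2-9* and -0.0070 to 0.032 for *Six4*, which was -0.0032 with scaling by total counts.

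In Ins/Ins the number of members that rose was 5 and became 1 in a test against 2-fold and 3 among changes above 2-fold, and the number that fell was 9 and became 14 with every gene of at least 1 read and 5 in the test against 2-fold. In Ins/Del 5 rose, which became 1 in the test against 2-fold, 2 above 2-fold and 3 to 5 without 1 library each (3 without Ins/Del replicate 2). In Ins/Del 11 fell, which became 21 with every gene of at least 1 read and 5 in the test against 2-fold. The 1 member lower in Ins/Del than in Ins/Ins became 0 in the test against 2-fold, 0 above 2-fold and 2 at an adjusted p of 0.05 in edgeR with Benjamini-Hochberg adjustment. Silent members were 22, and 1 with no read at all, 55 with at most 10 reads and 68 below 1 CPM, given without the share of all symbols at these other limits. Without *Hoxc13* paralog groups 9 to 13 went from above the control to 90.4% and 97.3% of it, with libraries that overlapped those of the control.

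Libraries with the same replicate number did not deviate together (correlations of -0.028 to 0.056 over 9 pairs, beside -0.057 to 0.062 over 18 pairs with different numbers). With the number as a replicate block the counts were 5 higher and 9 lower in Ins/Ins, 5 higher and 11 lower in Ins/Del and 0 higher and 1 lower between the lines. Depth is 1 limit, since 65 of 89 members had too few reads for the main test.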
